A study of Mus musculus with 6 samples.

Results

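The GABA and glycine signalling genes described here are 26 of the 35485 genes listed for mouse whole retina. They were picked out of the tables by gene symbol, from a list drawn up with earlier results of these data known, and all 26 were found. They comprise 18 receptor subunits (9 of GABA-A receptors, 3 of the rho type, 2 of the GABAB receptor and 4 of glycine receptors), 4 transporters, 3 enzymes and 1 scaffold protein. Other genes of these families were not analysed here. RNA-seq was carried out on retinas of male C57BL/6 mice, 12 weeks of age, taken 2 days after surgery on the nerve of the same eye. In the optic nerve crush (ONC) group the nerve was exposed and crushed 2 mm behind the eye for 10 s, and in the sham group it was exposed and not crushed. Each group had 3 samples, and each sample was a pool of RNA from 6 retinas, so the spread between samples is a spread between pools and not between single mice. The nerve is the bundle of axons that retinal ganglion cells (RGCs) send to the brain, and their cell bodies sit in the retina.

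GABA and glycine are the main inhibitory transmitters of the retina and are released mostly by amacrine and horizontal cells onto bipolar cells, RGCs and one another. GABA is made from glutamate by the decarboxylases encoded by Gad1 and Gad2, loaded into vesicles by the transporter of Slc32a1, which also carries glycine, and broken down by the transaminase of Abat. It opens chloride channels built from GABA-A or rho subunits and acts more slowly through the GABAB receptor, a G protein-coupled receptor made of one GABBR1 and one GABBR2 protein. Glycine opens chloride channels of GLRA and GLRB subunits, and gephyrin, the product of Gphn, holds glycine and many GABA-A receptors at the synapse.

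Exon reads per sample ranged from 17343945 to 20358008. The share of gene reads that fell on exons was 74.5% ± 3.13 (SD, n = 3) in sham and 79.6% ± 1.01 (SD, n = 3) in ONC, with no overlap. The two-sided exact permutation test gave p = 0.1, and 3 samples against 3 cannot go lower. Sham replicate 3 had the lowest share at 70.9%. Fold changes below are from exon reads scaled by the trimmed mean of M values (TMM), which places the median of the 13670 tested genes at 0.01 on the log2 scale. The deposited RPKM divides exon reads by exon length and by all reads on genes, those on introns included, and under that scaling the median was 0.13. RPKM is used below for levels and for comparing genes, and TMM-scaled exon reads, given as CPM (the unit that expresses reads relative to the size of the library), for ONC against sham. A gene is called higher or lower where the false discovery rate (FDR) of edgeR's quasi-likelihood test, adjusted over all tested genes, was under 0.1.

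Of the 26 genes, 2 fell after ONC and 0 rose. Both that fell encode receptor subunits: Gabbr2, of the GABAB receptor, and Gabrb2, of GABA-A receptors. Over all tested genes 6.09% were called, 3.72% lower and 2.38% higher. With a fold change above 1.5 of TMM-scaled reads also required, Gabbr2 alone was called lower, against 0.834% of all tested genes. The paper set this further threshold on RPKM, and there Gabbr2 did not reach it, with means of 11.8 in sham and 8.17 in ONC. Scaled by all reads on genes, its log2 fold change was -0.53, also short of 1.5 fold. An unadjusted p under 0.05 was reached by 3 members, all with lower values in ONC (the third was Abat), and the same held for 8.99% of all tested genes. DESeq2's Wald test called 3 members lower, the third again being Abat, and 0 higher, against 578 lower and 354 higher over all tested genes. Leaving out ONC replicate 1 raised the count from 2 to 6, with Abat, Gabra2, Gad2 and Slc6a11 added at FDRs of 0.0114, 0.0560, 0.0268 and 0.00862, while leaving out any of the other 5 samples left it at 2. The count over all genes moved as well, from 508 to 1262 called lower.

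Levels of the members spanned a wide range in sham retinas. Gad1 had the highest, with a mean RPKM of 74.9 ± 4.92 (SD, n = 3), and its lowest sham sample lay above every sham sample of the next gene. That gene was Slc6a11, a GABA uptake carrier, at an RPKM of 34.5 ± 2.38. Gabbr1 followed with an RPKM of 32.3 ± 1.33 and Gabrr1, a rho subunit, with 32.0 ± 3.19. Neighbours in this order overlapped in their sham values from Slc6a11 down through Gabbr1, Gabrr1, Gabrr2, Slc32a1 and Abat to Glrb, which had an RPKM of 22.1 ± 1.48. Gphn at 14.8 ± 0.549 RPKM and Gabbr2 at 11.8 ± 1.33 RPKM were each separate from the gene above. From Gabbr2 down, Gabra2, Gad2, Gabra3, Gabrb2, Gabrr3, Gabrd, Glra1 and Glra2 formed a further run of overlapping neighbours. At the low end were Gabrg1, Slc6a13, Gabrg3, Gabrb1 and Gabra5, all with a mean sham RPKM under 2, and Gabra5 was lowest at 0.441 ± 0.154 RPKM.

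**Figure D1:**
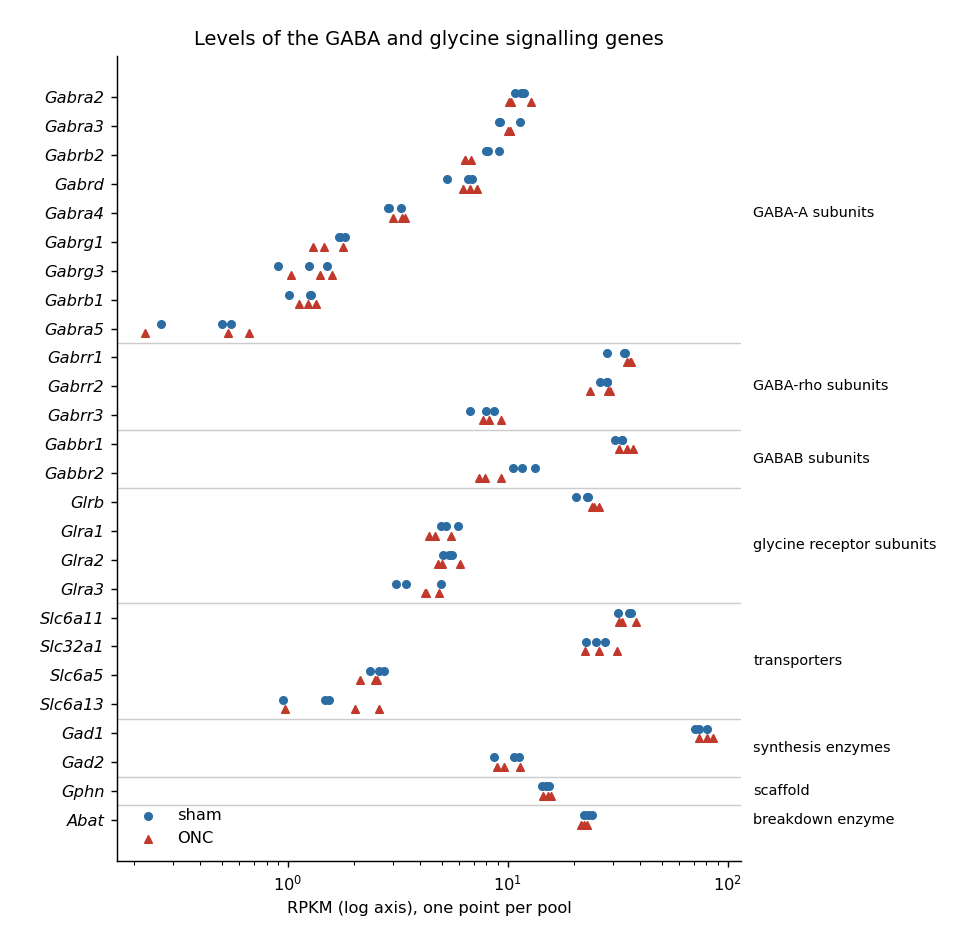
RPKM of each of the 26 genes on a log axis, grouped by class, with 1 point for each of the 3 sham pools (blue circles) and 3 ONC pools (red triangles). Gad1 stood highest at 74.9 in sham and Gabra5 lowest at 0.441, and the ONC points of Gabbr2 and Gabrb2 lie to the left of all their sham points.

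Of the GABAB receptor subunits, Gabbr2 fell and Gabbr1 was not called, and the log2 fold change of Gabbr2 was the lowest among the 26 members. GABBR1 binds GABA, and GABBR2 couples the pair to G proteins and carries it to the cell surface. Gabbr2 had 974, 1268 and 1140 exon reads in sham replicates 1 to 3 and 938, 737 and 813 in ONC replicates 1 to 3. Scaled by TMM these were 55.8, 69.7 and 67.1 CPM in sham and 47.4, 36.0 and 39.1 in ONC. All 3 ONC pools were below all 3 sham pools, with ONC replicate 1 the nearest to sham. Gabbr2 fell by 36.5%, a log2 fold change of -0.65 ± 0.10 (SE, 95% interval -0.87 to -0.44, FDR = 0.000527). In whole retina, fewer cells of a type and less RNA per cell cannot be told apart. Gabbr1 had 194.8, 195.9 and 199.0 TMM-scaled CPM in sham and 212.1, 174.0 and 194.2 in ONC. The sham values lay within the range of the ONC values, and the log2 fold change was -0.02 ± 0.07 (SE, 95% interval -0.16 to 0.12, FDR = 0.899).

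The ratio of the Gabbr2 RPKM to the Gabbr1 RPKM does not depend on how samples are scaled. It was 0.321, 0.399 and 0.379 in sham replicates 1 to 3 and 0.251, 0.232 and 0.226 in ONC replicates 1 to 3. The ONC values were closer to one another than the sham values and did not overlap them. The mean ratio was 0.366 ± 0.0404 (SD, n = 3) in sham and 0.236 ± 0.0128 (SD, n = 3) in ONC (two-sided exact permutation p = 0.1, the lowest that can be reached, and 0.2 after adjustment over 4 ratios). This pair was chosen after the values of both genes had been seen. The other 3 ratios were Gad2 to Gad1, Gabrr2 to Gabrr1 and Glra2 to Glrb. Each overlapped between the groups, with p = 0.2 in the same exact test.

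**Figure D2:**
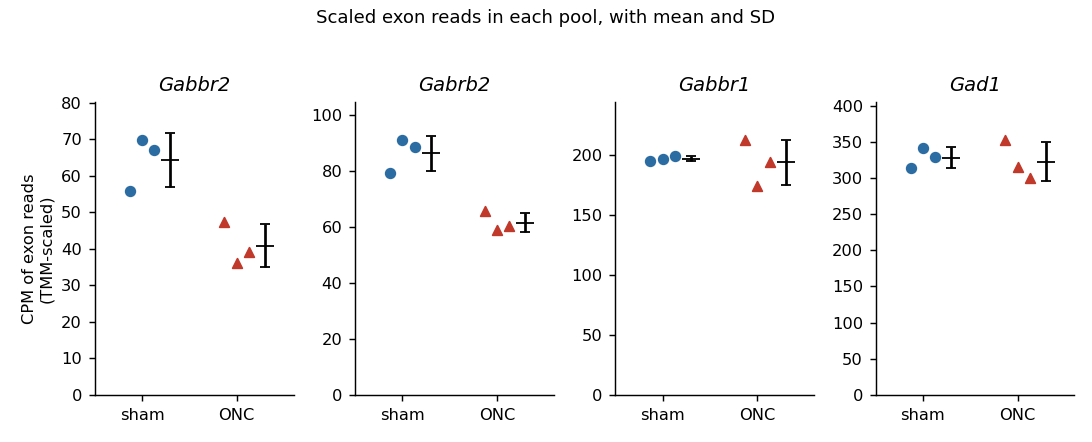
TMM-scaled CPM of exon reads for Gabbr2, Gabrb2, Gabbr1 and Gad1 in each of the 3 sham pools (blue circles) and 3 ONC pools (red triangles), with the mean and SD of each group in black and axes from 0. For Gabbr2 the ONC pools span 36.0 to 47.4 and the sham pools 55.8 to 69.7, whereas the groups overlap for Gabbr1 and Gad1.

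The sequences just upstream of both GABAB genes are shown because the subunits act as a pair and yet differed in their change. Each is the 250 bases before the transcription start in RefSeq, build GRCm38.p6, printed 5′ to 3′ on the gene's own strand, with capitals marking each GC box (GGGCGG, read on both strands, so CCGCCC where it lies on the opposite one). The Gabbr1 window is chr17:37045716-37045965 on the plus strand and the Gabbr2 window is chr4:46991715-46991964 on the minus strand.
Gabbr1: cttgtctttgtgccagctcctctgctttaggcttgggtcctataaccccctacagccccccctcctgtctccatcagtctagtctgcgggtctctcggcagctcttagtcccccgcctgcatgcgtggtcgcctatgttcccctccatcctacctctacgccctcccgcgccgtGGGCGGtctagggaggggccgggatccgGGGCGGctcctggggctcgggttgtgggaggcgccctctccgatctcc
Gabbr2: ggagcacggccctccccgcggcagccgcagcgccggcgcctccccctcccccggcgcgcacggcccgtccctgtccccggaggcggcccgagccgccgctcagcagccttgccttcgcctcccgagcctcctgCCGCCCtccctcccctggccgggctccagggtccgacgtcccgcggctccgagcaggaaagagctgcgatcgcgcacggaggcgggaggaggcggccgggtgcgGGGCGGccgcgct
The Gabbr2 window holds 80.8% G and C with 37 CpG pairs, and the Gabbr1 window 66.0% with 16, beside medians of 52.4% and 6 over the same window of 32851 RefSeq promoters. Each window holds 2 GC boxes, and 32.7% of all those windows hold at least 1. The letters of the CRE (TGACGTCA) and of the AP-1 motif (TGANTCA), searched on both strands, occur in neither window, and in 1.55% and 6.75% of all windows. A match of letters is a description of the sequence and does not show that a factor binds there. Of the 26 members, 23 are in the RefSeq promoter table used.

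GABA-A receptors are pentamers, most of them built of alpha and beta subunits with a gamma or delta subunit. Of the 9 members of this class, Gabrb2 fell and 8 were not called. Gabrb2, a beta subunit common in the brain, had 1381, 1654 and 1503 exon reads in sham and 1298, 1205 and 1251 in ONC. The TMM-scaled values were 79.1, 91.0 and 88.5 CPM in sham and 65.5, 58.8 and 60.2 in ONC. All ONC pools lay below all sham pools. Gabrb2 fell by 28.6%, a log2 fold change of -0.49 ± 0.08 (SE, 95% interval -0.65 to -0.33, FDR = 0.000479). A long noncoding gene, Gm34591, overlaps the start of Gabrb2 (chromosome 11, 42419757 to 42632591) in RefSeq, and the strand used in counting is not given in the sources used here.

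The other beta subunit, Gabrb1, was much scarcer, since in each sham sample the RPKM of Gabrb2 was between 6.30 and 9.05 times that of Gabrb1. It had 45 to 62 exon reads in a sample, and its log2 fold change of -0.07 had a 95% interval from -0.69 to 0.55. Among alpha subunits, Gabra2 had 37.3, 36.2 and 37.3 TMM-scaled CPM in sham and 39.1, 29.5 and 30.8 in ONC. ONC replicate 1 thus lay above and the other 2 ONC pools below all sham pools, and the log2 fold change was -0.16 ± 0.11 (SE, FDR = 0.490). Gabra3 and Gabra4 had log2 fold changes of -0.08 ± 0.09 (SE) and -0.02 ± 0.13 (SE). Gabra5 rested on 15 to 45 exon reads per sample, of which 44.8% were uniquely mapped, and its interval of -0.99 to 0.97 on the log2 scale leaves its change undetermined at this depth.

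Of the gamma subunits, Gabrg1 had 10.9, 11.4 and 11.7 TMM-scaled CPM in sham and 8.9, 7.6 and 10.6 in ONC. The groups did not overlap, with ONC replicate 3 close to sham, and the log2 fold change of -0.32 ± 0.16 (SE) missed the threshold (FDR = 0.326). Gabrg3, with 36 to 67 exon reads per sample, gave 0.01 ± 0.33 (SE), and Gabrd, whose delta subunit serves receptors outside the synapse, gave -0.01 ± 0.13 (SE). Cfap74, a protein-coding gene, overlaps Gabrd in RefSeq. Gabrg1, Gabra2, Gabra4 and Gabrb1 lie in one cluster on chromosome 5 (70751047 to 72137244) and Gabrg3 and Gabra5 in another on chromosome 7 (56724242 to 57510009), and none of the members in these 2 clusters was called. The positions are those deposited, and they match GRCm38.

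**Figure D3:**
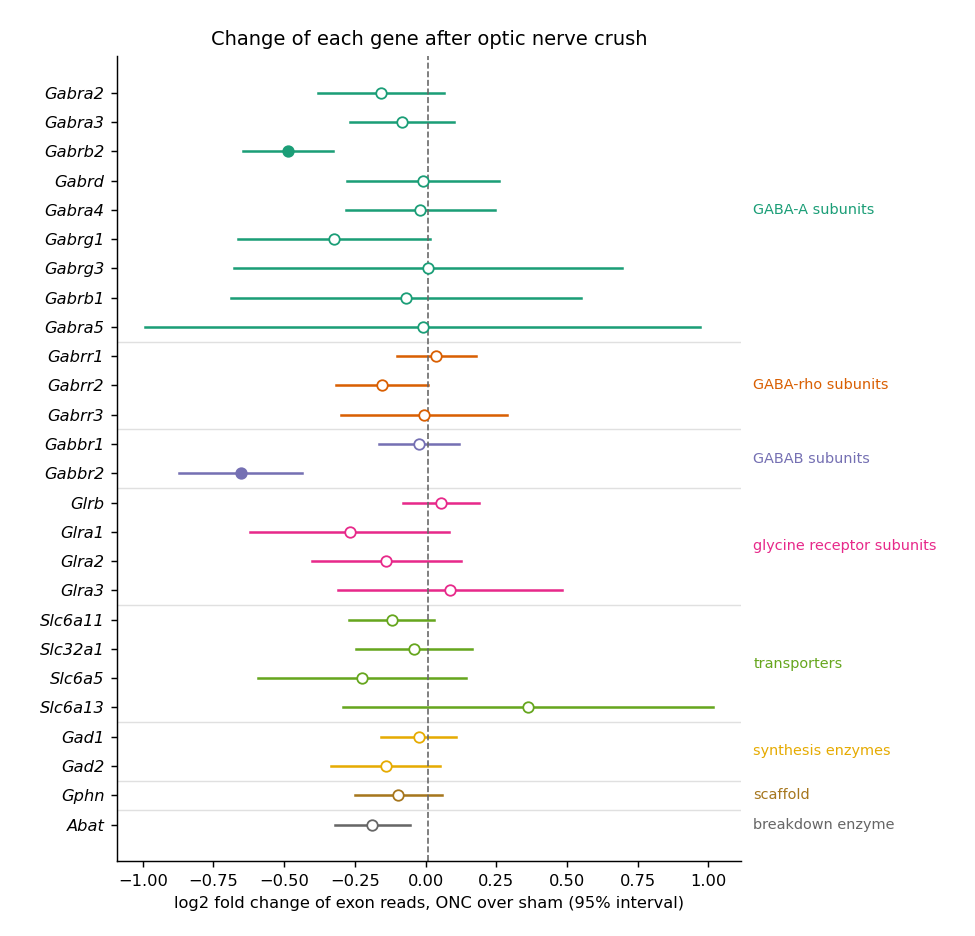
Log2 fold change of exon reads in ONC over sham for each of the 26 genes, with 95% intervals, coloured by class. Filled points mark the genes with an FDR under 0.1, Gabrb2 at -0.49 and Gabbr2 at -0.65, and the dashed line marks the median of all tested genes at 0.01.

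The rho subunits form GABA-gated channels of their own, known above all from bipolar cells. None of the 3 was called, and their median log2 fold change was -0.01. Gabrr2 had 68.0, 67.8 and 69.0 TMM-scaled CPM in sham and 55.1, 64.3 and 64.7 in ONC. The groups did not overlap, although ONC replicates 2 and 3 were near the sham values, and the log2 fold change was -0.15 ± 0.08 (SE, FDR = 0.326). Gabrr1 lies beside Gabrr2 on chromosome 4 and gave a log2 fold change of 0.04 ± 0.07 (SE, FDR = 0.827). Gabrr3 gave -0.01 ± 0.14 (SE). The markers of bipolar cells moved little as well, with 0 of 8 called and log2 fold changes from -0.15 to 0.03.

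Glycine receptors join alpha subunits, which bind glycine, with the beta subunit of Glrb, which binds gephyrin. None of the 4 members was called, and their median log2 fold change was -0.04. Glrb was the most abundant, its RPKM in sham being 3.68 to 4.57 times that of Glra2, and gave a log2 fold change of 0.06 ± 0.06 (SE, 95% interval -0.08 to 0.19). The TMM-scaled CPM of Glra1 were 9.2, 11.0 and 10.6 in sham and 9.9, 7.5 and 8.2 in ONC. One ONC pool lay within the sham range, and the log2 fold change was -0.27 ± 0.17 (SE, FDR = 0.449). Glra2 gave -0.14 ± 0.13 (SE) and Glra3 0.09 ± 0.19 (SE) on the same scale.

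Of the 4 transporters none was called. Slc6a11 encodes a GABA carrier of the plasma membrane. It had 193.7, 190.7 and 186.4 TMM-scaled CPM in sham and 198.8, 157.9 and 168.3 in ONC. The first ONC pool was above and the others below all sham pools, and the log2 fold change was -0.12 ± 0.07 (SE, FDR = 0.427). Slc32a1, the vesicular carrier, showed the same order with 93.2, 102.5 and 91.9 in sham and 112.1, 76.7 and 90.8 in ONC, and a log2 fold change of -0.04 ± 0.10 (SE). Slc6a5, the glycine carrier of glycine-releasing neurons, gave -0.23 ± 0.18 (SE). Slc6a13, a further GABA carrier, had few reads, with 47, 79 and 78 in sham and 53, 108 and 145 in ONC. Its values overlapped, and its log2 fold change of 0.36 ± 0.31 (SE, 95% interval -0.29 to 1.01) was the highest among the members without passing the test (FDR = 0.603).

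Of the enzymes none was called. Gad1 had 313.1, 341.8 and 329.2 TMM-scaled CPM in sham and 352.4, 315.5 and 299.6 in ONC, so the ONC values enclosed the sham values. Its log2 fold change was -0.02 ± 0.06 (SE), with a 95% interval of -0.16 to 0.11. Gad2, whose product is found largely at synaptic terminals, gave a log2 fold change of -0.14 ± 0.09 (SE, FDR = 0.471). A noncoding gene, Gad1os, overlaps Gad1 in RefSeq. In sham samples the RPKM of Gad1 was 6.92 to 8.20 times that of Gad2. Abat had 141.4, 148.1 and 148.4 TMM-scaled CPM in sham and 135.4, 120.8 and 128.3 in ONC. All ONC pools were below all sham pools, the nearest being ONC replicate 1, and the log2 fold change was -0.19 ± 0.06 (SE, 95% interval -0.32 to -0.06). The unadjusted p was 0.00758 and the FDR 0.113, just outside the threshold. Gphn, the scaffold gene, gave -0.10 ± 0.07 (SE, FDR = 0.544).

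The 3 roles were set side by side. The genes called lower were 2 of 18 receptor subunits, 0 of 4 transporters and 0 of 3 enzymes, against 3.72% of all tested genes. Without ONC replicate 1 they were 3 of 18 receptor subunits, 1 of 4 transporters (Slc6a11) and 2 of 3 enzymes (Gad2 and Abat), against 9.23% of all tested genes. The counts by role thus changed with that sample, and a difference between roles was not tested. The median log2 fold change was -0.05 for receptor subunits, -0.08 for transporters and -0.14 for enzymes, beside 0.01 for all tested genes. Over the 26 members the median was -0.08, and 21 had a log2 fold change below 0, against 47.7% of all tested genes. Scaled by all reads on genes, the median of the members was 0.05 and that of all genes 0.13. The summed RPKM of the receptor subunits was 191.8 ± 9.75 (SD, n = 3) in sham and 195.8 ± 1.69 in ONC. For the transporters it was 63.6 ± 4.50 in sham and 65.3 ± 7.25 in ONC, and for the enzymes 108.2 ± 7.16 in sham and 112.1 ± 7.11 in ONC, with overlapping samples throughout. TMM-scaled values of ONC and sham did not overlap in 5 members, all lower in ONC (Gabbr2, Gabrb2, Gabrg1, Gabrr2 and Abat), against 10.8% of all tested genes, and in 0 members were all ONC values higher, against 11.0%. By RPKM, Gabbr2 and Gabrb2 lay wholly lower, against 3.45% of all genes, and Gabrr1 and Glrb wholly higher, against 25.4%.

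Reads on introns were a second readout of the same genes. They come from transcripts not yet spliced, and from any other RNA of the region. Of the 26 members, 24 had a mean of at least 10 intron reads per sample (all but Slc6a13 and Slc32a1). In edgeR's test 0 of these were called in either direction, while 2.37% of the 13317 genes tested were called lower and 0.511% higher. An unadjusted p under 0.05 was reached by 6 members, all lower in ONC (Gabra5, Gabrb2, Gabrg3, Gabbr2, Slc6a11 and Gphn), against 10.8% of all genes tested. Gabbr2 had 152, 133 and 244 intron reads in sham and 88, 86 and 143 in ONC. Apart from ONC replicate 3, the ONC values were below the sham values, and the log2 fold change was -0.71 ± 0.25 (SE, FDR = 0.162), beside -0.65 in exon reads. RefSeq places 2 long noncoding genes, Gm32208 and Gm32135, within the span of Gabbr2 (chromosome 4, 46663898 to 46991714), and their part in its intron reads was not tested. Gabrb2 had 93, 137 and 298 intron reads in sham and 115, 59 and 92 in ONC, which overlapped, and a log2 fold change of -0.90 ± 0.36 (SE, FDR = 0.217).

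Over the 24 members the median log2 fold change of intron reads was -0.38, beside 0.03 for all genes tested, and 20 were below 0, against 47.8%. Sham replicate 3, the sample with the lowest share of exon reads, had the highest intron reads of Gabbr2, Gabrb2 and Gphn among all 6 samples. Without it the median of the members was -0.21, the log2 fold change of Gabrb2 was -0.35 and that of Gabbr2 -0.46. Without sham replicate 1 there were 3 members called lower, and without ONC replicate 1 there were 2. Over all 13317 genes tested, 743 and 290 were called lower in these fits, against 315 with all samples. Without sham replicate 2 or ONC replicate 2, 0 genes were called lower, and without ONC replicate 3 only 1 was. The intron reads of Gphn were of another order than those of any other member, with 106099, 96705 and 195812 in sham and 110385, 46990 and 66209 in ONC. They were 97.3% to 99.4% of all Gphn reads and 0.966% to 2.75% of all intron reads of a sample. Its exon reads numbered 1164 to 1344. RefSeq places a pseudogene, Gm18899, inside Gphn (chromosome 12, 78226655 to 78684772). The log2 fold change of Gphn intron reads was -0.72 ± 0.32 (SE, FDR = 0.252), and -0.40 without sham replicate 3.

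**Figure D4:**
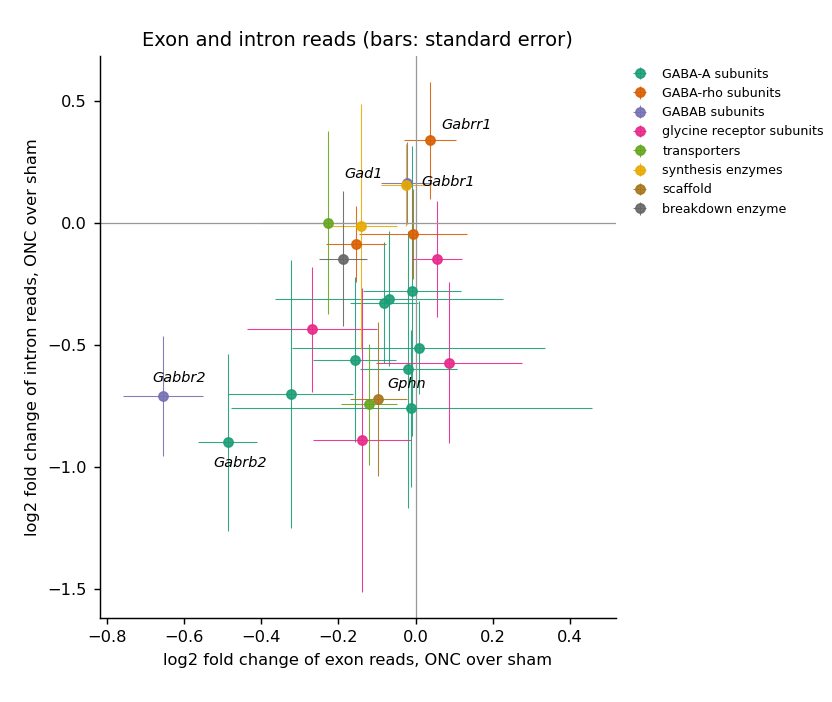
Log2 fold change in ONC over sham of exon reads (horizontal axis) and of intron reads (vertical axis) for the 24 genes tested in both, with standard errors, coloured by class. Gabbr2 and Gabrb2 lie to the left on the exon axis and low on the intron axis, and most of the other genes lie near 0 on the exon axis and below 0 on the intron axis.

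Other genes of the pathway were taken from a list of 31 covering chloride transport, synapse scaffolds and adhesion, receptor trafficking, GABAB receptor partners, GABA breakdown, glycine cleavage and precursor supply. Of these 30 were listed and tested, and 2 fell and 1 rose, against 3.72% lower and 2.38% higher of all tested genes. Slc12a5, which encodes the chloride exporter KCC2 that sets the driving force for inhibitory currents, had 903.6, 927.8 and 959.1 TMM-scaled CPM in sham and 853.1, 718.0 and 741.2 in ONC. The groups did not overlap, and Slc12a5 fell by 17.1%, a log2 fold change of -0.27 ± 0.06 (SE, FDR = 0.0146). It was called under 13 of 17 alternatives, with FDRs up to 0.199. Those that lost the call included leaving out sham replicate 3 (FDR = 0.111) and scaling by all reads on genes (FDR = 0.151). Aldh5a1, the enzyme that follows Abat in GABA breakdown, fell by 18.1% (log2 fold change -0.29 ± 0.08, SE, FDR = 0.0626), but 21.6% of its exon reads were uniquely mapped. Leaving out any sample other than ONC replicate 1 ended the call, with FDRs up to 0.231. Aldh5a1 was called under 7 of 17 alternatives, with FDRs up to 0.383. Shmt2, a mitochondrial enzyme that converts serine to glycine, had 36.1, 28.9 and 35.0 TMM-scaled CPM in sham and 43.6, 50.1 and 50.03 in ONC. It rose by 43.7% without overlap (log2 fold change 0.52 ± 0.10, SE, FDR = 0.00344). The partners of the GABAB receptor, Kctd8, Kctd12 and Kctd16, had a median log2 fold change of -0.31, and 0 of 3 were called.

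Markers of the cell types of the retina were examined beside these changes. Of 10 RGC markers, 8 fell (Nefl, Nefm, Nefh, Sncg, Rbpms, Pou4f1, Pou4f2 and Thy1), Slc17a6 rose and Isl2 was not called (FDR = 0.130). Thy1 fell least of these, by 14.4% (FDR = 0.0517), and its RPKM values overlapped between the groups. The paper, which tested RPKM, found no significant change of Thy1 at this time. The median log2 fold change of the 10 markers was -0.75, and their summed RPKM was 434.6 to 453.2 in sham and 321.1 to 338.8 in ONC. Of 8 amacrine markers 7 were tested and 1 fell, Calb2, which RGCs also express, with a log2 fold change of -0.55 ± 0.05 (SE, FDR = 2.62e-06). The other 6 had no call, and Slc18a3 had at most 2 reads in any sample. The summed RPKM of the amacrine list was 273.3 to 294.1 in sham and 232.6 to 245.8 in ONC. Without Calb2, a sum formed after its values had been seen, it was 80.6 to 91.3 in sham and 87.4 to 96.3 in ONC, which overlapped. Of 5 horizontal cell markers 2 fell, Calb1 and Prox1, and the summed RPKM was 44.3 to 49.4 in sham and 41.1 to 41.9 in ONC. The summed levels of the RGC, horizontal cell and full amacrine lists were lower in every ONC pool than in any sham pool. The same held for the levels of Gabbr2 and Gabrb2. The part of these cells in the changes of Gabbr2 and Gabrb2 was not tested.

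The Müller glia markers had 0 of 5 called and a summed RPKM of 822.8 to 943.8 in sham and 896.9 to 935.1 in ONC. Of 6 photoreceptor markers Sag rose and Pdc fell. Of 6 microglial markers C1qa and C1qb rose, and the summed RPKM was 13.3 to 17.0 in sham and 25.5 to 29.5 in ONC. Markers of the pigment epithelium and ciliary body, of stroma and meninges, and of vessels had 0 called among 6, 3 and 4 tested genes.

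**Figure D5:**
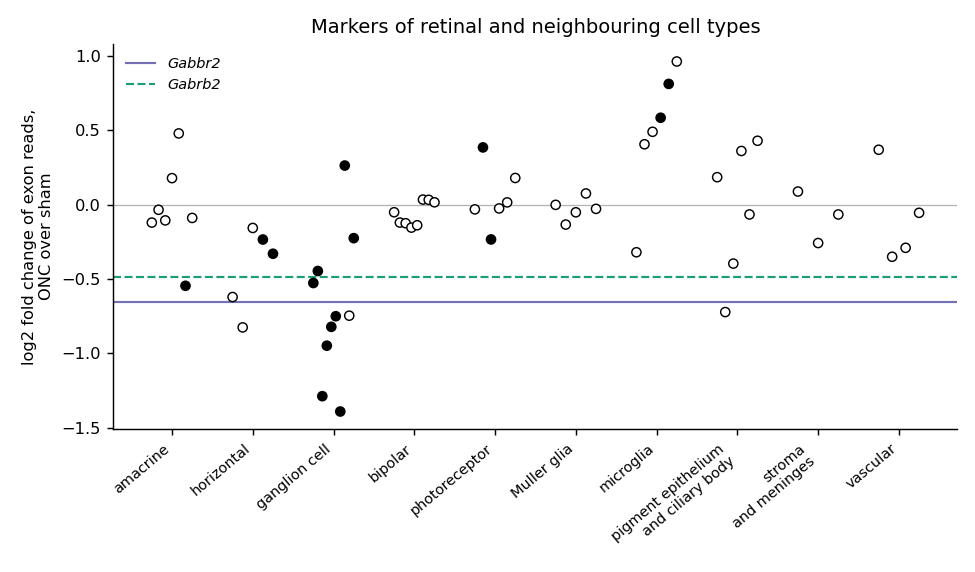
Log2 fold change of exon reads in ONC over sham for the tested markers of each cell type, 1 point per gene, filled where the FDR was under 0.1. The solid and dashed lines give Gabbr2 at -0.65 and Gabrb2 at -0.49. Of the 10 RGC markers 6 lie below both lines, and 6 of 7 amacrine markers lie above both. Of the horizontal cell markers, Onecut1 (-0.83, not called) lies below both lines and Lhx1 (-0.62, not called) between them. Onecut2, Prox1 and Calb1 lie above both. Tyrp1 of the pigment epithelium list (-0.72, not called) also lies below both.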

How the data were processed

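Total RNA was extracted from whole retinas and pooled. Libraries made from it with the Illumina TruSeq RNA kit were sequenced as 3 ONC samples, called NC in the labels, and 3 sham samples. Group and replicate number were taken from the labels. The authors mapped paired reads with CLC Genomics Workbench and deposited read counts per gene, without normalization, on exons and on whole genes, as total and as unique reads. They also deposited RPKM values, which divide exon reads by exon length and by all reads on genes, and a group mean RPKM, which was not used. The submitters' notes and the paper name mm9, but positions match GRCm38, shown by the RefSeq table of that build, with 18 of 26 members sharing an end of their span with it. The 13670 genes whose mean deposited RPKM passed 0.3 in either group, a threshold taken from the paper, whose stated number of genes differs, were tested with edgeR 4.0.16 in R 4.3.3 (TMM, quasi-likelihood test, condition as the only term, Benjamini-Hochberg adjustment over all tested genes). The biological coefficient of variation was 9.17% for exon reads and 23.2% for intron reads. The SE of a log2 fold change was its size divided by the root of the F statistic. Intron reads were total gene counts minus total exon counts. All 26 members are named, with those of the related list that were called and the markers a result turns on. The members and the lists were chosen with earlier results of these data known. On simulated counts with 200 genes changed by a factor of 2 among 13670, the exon read procedure called 200 with 19 other genes called. The changed genes were drawn from those above a floor of expected reads, and smaller changes were not simulated. Alternatives used DESeq2 1.42.0, limma 3.58.1 on log2 RPKM with pseudocounts of 0.1 and 1, other filters, reads and scalings, the replicate number as a block, and each sample left out in turn. Tables and figures used Python 3.11.15, numpy 2.4.6, pandas 2.3.3, scipy 1.17.1 and matplotlib 3.10.9.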

Additional observations from a re-analysis of the deposited data

How the results depend on the processing

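With 3 pools a group, the 95% interval of Gad1 still ran from -0.16 to 0.11 on the log2 scale. Gabra5, Gabrb1, Gabrg3 and Slc6a13 were limited further by their few reads. Gabbr2 and Gabrb2 were called lower under all 17 alternatives run for them, with log2 fold changes from -0.77 to -0.48 for Gabbr2 and from -0.55 to -0.32 for Gabrb2, and the count of members called higher was 0 under all 19 alternatives run for it. The count of members called lower was 2. It was 3 with DESeq2's Wald test, with no filter on low values and with a mean RPKM above 1 (Abat added in each, at FDRs of 0.0778, 0.0926 and 0.0975). It was 4 with total gene reads, introns included (Gabrg3 and Gphn added), and 1 with a fold change above 1.5 also required. With 1 sample left out it was 2 to 6, the 6 being without ONC replicate 1. Over all 13670 tested genes, 508 were called lower in the main fit, 578 with DESeq2's Wald test and 784 with total gene reads. The all-gene number was 693 of 17655 with no filter and 521 of 11976 with a mean RPKM above 1. With 1 sample left out it ranged from 219 to 1262. For intron reads the count of members called lower was 0, but 2 when scaled by all reads on genes. With 1 sample left out it was 0 to 3, the 3 being without sham replicate 1 and 2 without ONC replicate 1. Over all genes tested, the intron count called lower was 315 in the main fit and 742 with that scaling. It was 0 to 743 with 1 sample left out. Of the related genes 1 was called higher and 2 lower. These became 4 and 0 when scaled by all reads on genes. With 1 sample left out they ranged from 1 to 2 and from 0 to 9, the 9 being without ONC replicate 1 and the 0 without sham replicate 3. Over all tested genes, 325 were called higher and 508 lower in the main fit, and 1507 and 223 with that scaling. The all-gene numbers were 769 and 1262 without ONC replicate 1, and 166 and 234 without sham replicate 3.

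The signs of small changes followed the scaling. Scaled by all reads on genes, the log2 fold change was above 0 in place of below for Gabra3 (0.037), Gabra4 (0.10), Gabra5 (0.11), Gabrb1 (0.057), Gabrd (0.11), Gabrr3 (0.12), Gabbr1 (0.096), Slc32a1 (0.075), Gad1 (0.096) and Gphn (0.028), all below the shift of 0.13 in the median of all genes. With limma on log2(RPKM + 0.1) the same genes gave 0.044, 0.10, 0.043, 0.056, 0.11, 0.12, 0.094, 0.067, 0.095 and 0.027 in that order, and with a pseudocount of 1 they gave 0.040, 0.078, 0.027, 0.032, 0.10, 0.11, 0.092, 0.065, 0.094 and 0.026. With total gene reads, Gabrg3 (-0.64), Glra3 (-0.24), Gabbr1 (0.017), Slc32a1 (0.0015) and Gad1 (0.017) changed sign, and the cause was not tested. Leaving out 1 sample at a time, the log2 fold change crossed 0 for Gabra4 (-0.078 to 0.027), Gabra5 (-0.35 to 0.33), Gabrb1 (-0.19 to 0.035), Gabrg3 (-0.19 to 0.25), Gabrd (-0.076 to 0.040), Gabrr1 (-0.0032 to 0.068), Gabrr3 (-0.12 to 0.056), Gabbr1 (-0.095 to 0.043), Glra3 (-0.0086 to 0.29), Slc32a1 (-0.19 to 0.077) and Gad1 (-0.093 to 0.021), none of which was called in any of those fits.

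ONC and sham samples share replicate numbers in the labels, but same-numbered samples did not deviate together (correlations of their deviations over genes of -0.047, -0.038 and -0.0053), so the numbers were not treated as pairs. With the replicate block 2 members were called lower and 0 higher, 2 related genes lower and 1 higher, and 0 members by intron reads, as without it. The ratio of Gabbr2 to Gabbr1, an alternative set chosen after seeing the data, differed between ONC and sham by -0.13 in the main comparison and by -0.15 to -0.11 with 1 sample left out.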
